A study of Mus musculus with 22 samples.

Results

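Astrocytes of the optic nerve proper (ONP) were compared between 30 and 7 days after microbeads were injected to raise intraocular pressure (IOP). The ONP is the myelinated stretch of the optic nerve behind the optic nerve head (ONH). The paper describes the pressure as rising towards 7 days and as declining at 30 days. All 11 ONP libraries of the series were used, 7 taken at 30 days and 4 at 7 days, out of 22 libraries in all, and every gene was followed. The other 11 libraries came from the ONH and were used only to ask where the change of the ONP differed from that of the ONH. Both groups were mice aged 3 to 4 months that were homozygous for an HA-tagged ribosomal protein, Rpl22 HA, and carried Cre under the mouse GFAP promoter, and both had microbeads injected into 1 eye. The Cre is constitutive, so any cell that used the promoter at an earlier stage also carries the tag. Each library pooled the ONP of 4 mice, 2 male and 2 female, and held only the most proximal piece, cut to the length of the ONH. The 7 and 30 day libraries are from different mice. Uninjured nerves were not analysed here, so a difference between the days does not say which of them lies nearer to an untreated nerve.

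Astrocytes of the optic nerve form a scaffold around axon bundles, buffer potassium and glutamate, couple to each other through gap junctions and supply fuel to axons. In the ONP they share the tissue with oligodendrocytes, which wrap the axons in myelin, a membrane very rich in cholesterol. In the ribotag method the tagged ribosomes of one cell type are pulled down with an antibody against HA, so that the sequenced mRNA is mostly that bound to the ribosomes of this cell type. Ribosomes or free RNA of other cells can be carried along, and their markers are therefore given beside the results.

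Libraries held 16292489 to 28729105 counts. Expression is given as CPM, the counts scaled to a common library size with edgeR's TMM method. The detection floor was set at 3 counts, which is 0.113 to 0.192 CPM depending on the library. Astrocyte markers were abundant in every library but not level between libraries. The 12 markers summed to 22622, 19387, 22249 and 16249 CPM at 7 days. At 30 days they summed to 15647.5 (library 5) to 33237 CPM (library 3), with a median of 28700, and the days overlapped. By edgeR 2 of the 12 rose and 1 fell, beside 7.82% and 9.21% of all genes. Gfap, the intermediate filament gene whose promoter drives the Cre, stood at 14318, 11956, 15201 and 9643 CPM at 7 days and 10711 to 22576 CPM (median 18838) at 30 days, and the groups overlapped (log2FC 0.48 ± 0.21 (SE), adjusted p = 0.13). Aqp4, the astrocyte water channel, stood at 1001, 1026, 964 and 809.6 CPM at 7 days and 559.8 to 1683 CPM (median 1199) at 30 days (log2FC 0.31 ± 0.27 (SE), adjusted p = 0.451). Markers of other cells were present too and did not stay level, as the plot of levels by library shows. The 17 oligodendrocyte markers summed to 85121, 93026, 94771 and 111694 CPM at 7 days and 26539 to 86167 CPM (median 54849) at 30 days, and library 5 was the only 30 day library above the lowest 7 day library. The 11 endothelial markers summed to 201, 228, 267 and 217 CPM at 7 days and 20.1 to 155 CPM (median 42.2) at 30 days, with no overlap between the days. The 14 markers of microglia and macrophages summed to 2243, 2726, 1952 and 3227 CPM at 7 days and 354 to 5991 CPM (median 515) at 30 days. Within the 30 day group they were at 4604 CPM in library 5 and 5991 CPM in library 7, and between 354 and 1553 CPM in the other 5. In pooled tissue, fewer cells of a type and less RNA per cell cannot be told apart.

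**Figure D1:**
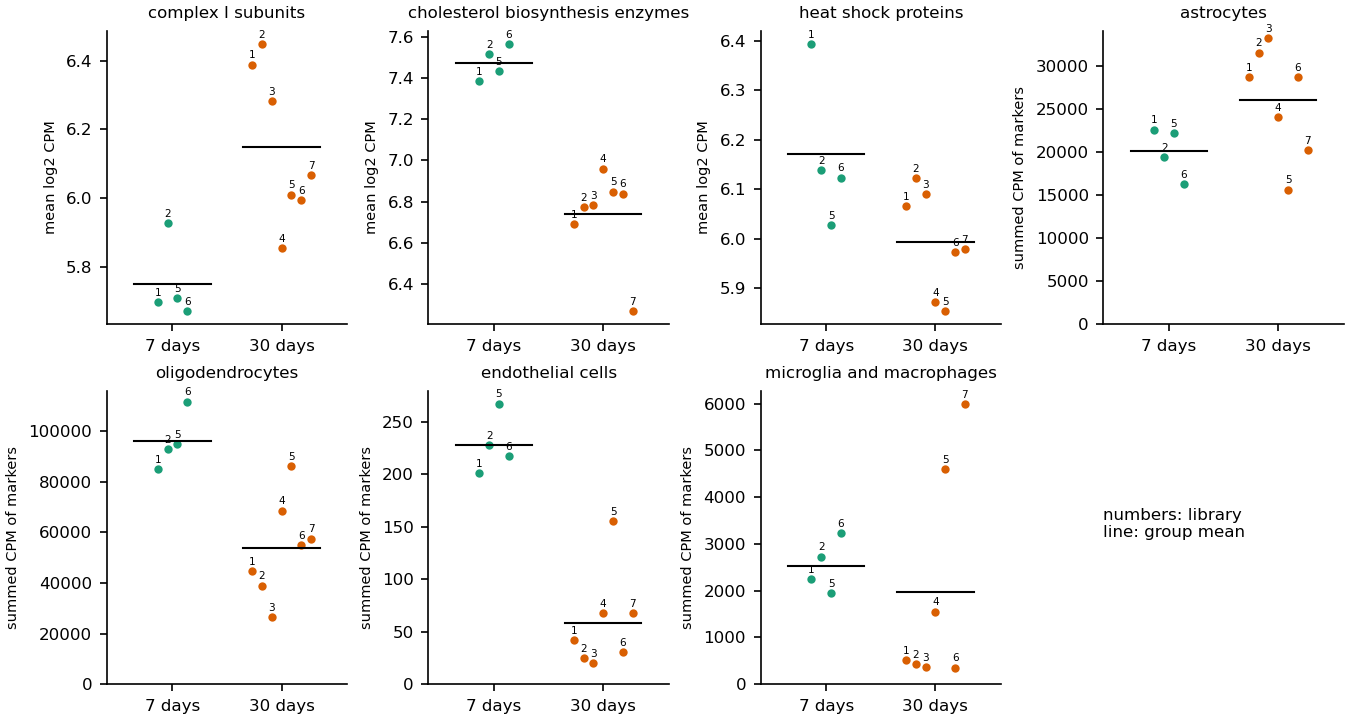
Mean log2 CPM of 3 gene lists and summed CPM of the markers of 4 cell types in each ONP library (points, numbered as the libraries are) with the group mean (line), for 4 libraries at 7 days and 7 at 30 days. Cholesterol enzymes and endothelial markers do not overlap between the days, oligodendrocyte markers overlap through library 5 of the 30 day group, and microglia markers span 354 to 5991 CPM at 30 days.

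Of 29367 genes in the table, 15491 were expressed highly enough to be tested. Between 7 and 30 days 2638 of them changed (17%), of which 1211 rose (7.82%) and 1427 fell (9.21%), at an adjusted p-value under 0.05 in edgeR's quasi-likelihood test and with no cutoff on the log2 fold change (log2FC). The changes were mostly moderate, with a median absolute log2FC of 0.74 among called genes. A log2FC of at least 1 in either direction was reached by 819 called genes, 438 of them higher and 381 lower. In 1668 of the called genes every 30 day library lay on one side of every 7 day library. Over all genes tested, 5.56% lay wholly above and 6.51% wholly below the 7 day libraries. At an unadjusted p-value under 0.05 in edgeR, 2422 of the 15491 genes were higher and 2621 lower. DESeq2 called 2054 of 26637 genes higher and 1657 lower. Unadjusted and DESeq2 counts of gene lists below are to be read beside these. Of 416 tested lincRNAs 47 rose, 13 fell and the others were not called, and 13 of 57 noncoding RNAs from bidirectional promoters rose. In the same ONH comparison edgeR called 0 of 15668 genes, with a smallest adjusted p-value of 0.07 and 2179 genes at an unadjusted p-value under 0.05, and DESeq2 was not run there. The count in the ONP depended on what else was put into the model. With the oligodendrocyte marker score as a covariate 600 genes were called (185 higher, 415 lower), 382 of them shared with the 2638, and with the endothelial score 397 were called (103 higher, 294 lower), 178 of them shared. Each score moves with the day, so its part and that of the day cannot be told apart by these fits. Calls were lost over all 15491 genes with a score. The counts given below for gene lists with a score are therefore to be read beside these smaller totals, not beside 7.82% and 9.21%. Leaving out library 6 of the 7 day group gave 1439 calls.

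**Figure D2:**
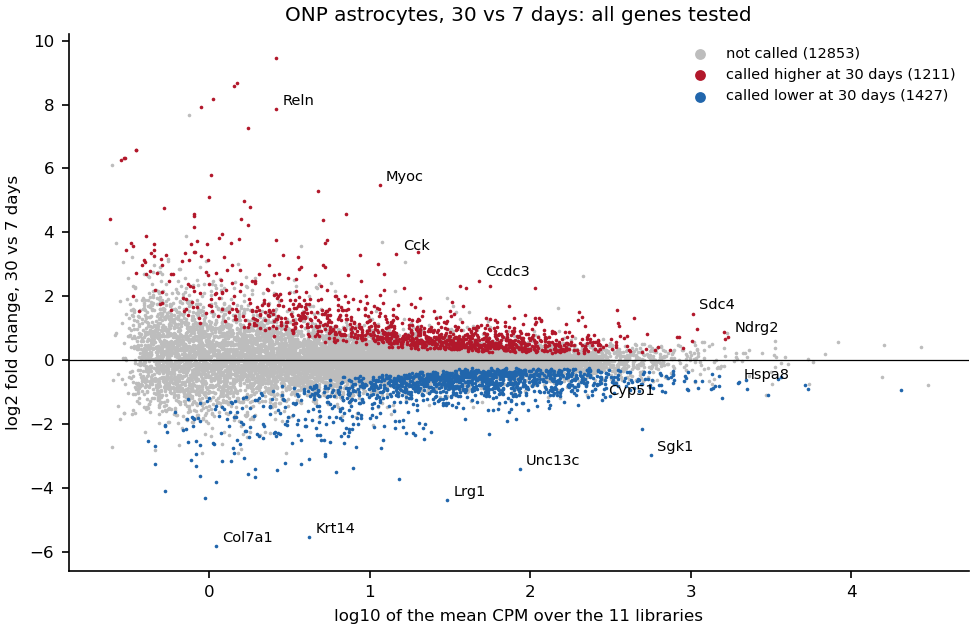
Log2 fold change at 30 vs 7 days (vertical axis) against the log10 of the mean CPM over the 11 ONP libraries (horizontal axis) for the 15491 genes tested, with genes called higher in red, called lower in blue and not called in grey. The largest increases and many of the largest decreases lie at low levels, while Sgk1, Unc13c and Lrg1 fell from higher levels.

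The 15 largest increases and 15 largest decreases were picked among called genes whose days do not overlap. Non-overlap is therefore no result for these genes. The largest increases were genes that were absent or barely detected at 7 days. Fezf1, a zinc finger transcription factor of forebrain development, was listed at 0 in all 4 libraries at 7 days and at 0.116 to 2.73 CPM (median 1.75) at 30 days. Set against 3 counts over the whole 7 day group, its level was at least 38.5-fold higher at 30 days. The noncoding C130093G08Rik, which lies beside Fezf1 on chromosome 6, also had 0 counts at 7 days and was at least 115-fold higher, at 0.818 to 7.47 CPM. The ABC transporter Abcc12 was at least 64.1-fold higher and the protein-coding gene 4833423E24Rik at least 62-fold higher on the same basis. Reln, the secreted glycoprotein reelin that guides neuronal layering, had 1 count in all 7 day libraries together and 648 at 30 days, a ratio of 350 with an exact 95% interval from 62.6 to 13900 that covers counting error only. Its 30 day libraries ranged from 1.22 to 9.62 CPM. The noncoding A330076C08Rik likewise had 1 count against 411, a ratio of 222 (95% interval 39.6 to 8790).

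Myoc, Pax8, Lrrc55 and Pdyn, also among the 15, had higher median levels at 30 days than the genes above. For Myoc, Pax8 and Pdyn, 7 day libraries at 0 CPM leave the size of the fold change uncertain. Myoc (chromosome 1, 162639155 to 162649693, GRCm38), which encodes the secreted protein myocilin and is mutated in some inherited glaucomas, stood at 0, 0.192, 1.27 and 0 CPM at 7 days and 3.75 to 31.9 CPM (median 18.3) at 30 days. Its log2FC was 5.49 ± 0.97 (SE), with an adjusted p = 0.00374 by edgeR. Pax8, a paired box transcription factor, stood at 0, 0, 0.656 and 0 CPM at 7 days and 1.97 to 12.3 CPM (median 8.41) at 30 days (log2FC 5.31 ± 1.0 (SE), adjusted p = 0.00512). Lrrc55, an auxiliary subunit of potassium channels, stood at 0.614, 0.703, 0.533 and 0.0375 CPM at 7 days and 4.04 to 18 CPM (median 12.3) at 30 days (log2FC 4.58 ± 0.67 (SE), adjusted p = 0.00154). It overlaps the noncoding Gm13716 on the other strand of chromosome 2, which also rose, and reads of such overlapping genes may not be fully separable. Pdyn, the precursor of the dynorphin opioid peptides, stood at 0.922, 0, 0.574 and 0 CPM at 7 days and 4.52 to 11.8 CPM (median 7.38) at 30 days (log2FC 4.39 ± 0.80 (SE), adjusted p = 0.00422). Within the 30 day group libraries 5 and 7, those highest in microglia markers, were the 2 lowest for Myoc, Pax8 and Lrrc55. Wisp2, Aurkb, Gm20655 and Gm33195 complete the 15 largest increases.

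Among the largest decreases, Col7a1, the collagen of anchoring fibrils, stood at 1.66, 2.75, 5.25 and 2.06 CPM at 7 days and 0 to 0.0914 CPM (median 0.0481) at 30 days (log2FC -5.82 ± 0.53 (SE), adjusted p = 0.00024), and all 30 day libraries were at or under the amount of 3 counts. Krt14, a keratin of basal epithelium, stood at 1.78, 9.27, 29.3 and 4.17 CPM at 7 days and 0 to 1.29 CPM (median 0.0546) at 30 days (log2FC -5.53 ± 1.07 (SE), adjusted p = 0.00569), with library 1 the highest at 30 days. Lrg1, a secreted glycoprotein of the acute phase and of vessel growth, stood at 94.7, 78.9, 66.8 and 66.7 CPM at 7 days and 0.984 to 10.5 CPM (median 1.89) at 30 days (log2FC -4.38 ± 0.56 (SE), adjusted p = 0.000845). The amino acid transporter Slc38a5 stood at 36.7, 45.3, 32.5 and 33.8 CPM at 7 days and 0.714 to 6.16 CPM (median 2.02) at 30 days (log2FC -3.73 ± 0.50 (SE), adjusted p = 0.00103). For both, 30 day libraries 5 and 7 were the highest of their group. That no 30 day library reached the 7 day range was a condition for being among the 15. The transcription factor Sox17 (log2FC -3.08) and the receptor Flt4 (log2FC -3.11), both known from the lining of vessels, were also among the 15. They moved in the direction of the endothelial markers given above. Nefh, the heavy neurofilament subunit of axons, stood at 6.14, 2.49, 4.84 and 5.1 CPM at 7 days and 0.0481 to 0.734 CPM (median 0.382) at 30 days (log2FC -3.66 ± 0.50 (SE), adjusted p = 0.00107). Among the same 15 were also Lhx6, Tmem252, Adcy4, Nos1, AU021092 and Robo2. 

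**Figure D3:**
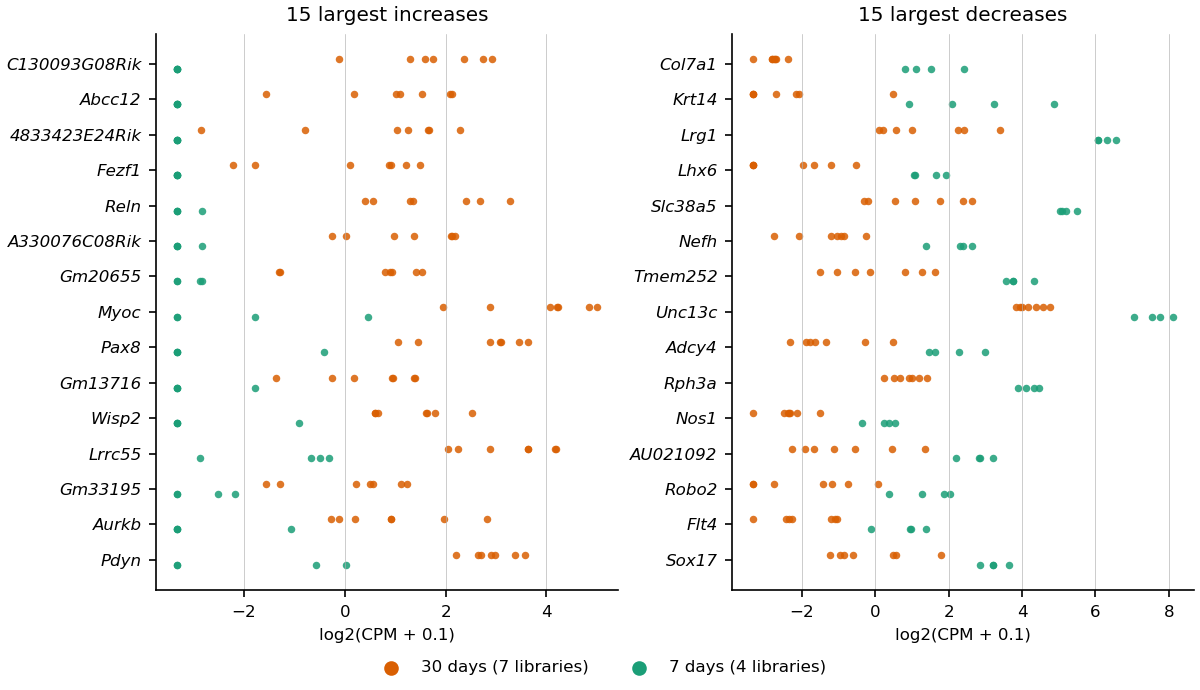
Log2 of CPM plus 0.1 in each library at 30 days (orange, 7 libraries) and 7 days (green, 4 libraries) for the 15 genes that rose most and the 15 that fell most, among called genes whose groups do not overlap. Zero counts sit at the left edge, where all 4 libraries at 7 days lie for the top 4 increases.

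The same 15 decreases held 2 genes of vesicle release. Unc13c, a Munc13 protein that primes vesicles for fusion (chromosome 9, 73479422 to 73968966), stood at 276, 218, 185 and 132 CPM at 7 days and 14.2 to 27 CPM (median 17.9) at 30 days (log2FC -3.40 ± 0.21 (SE), adjusted p = 1.47e-05). Rph3a, rabphilin, which binds Rab3 on secretory vesicles, stood at 22, 14.8, 19.8 and 17.3 CPM at 7 days and 1.09 to 2.56 CPM (median 1.78) at 30 days (log2FC -3.38 ± 0.23 (SE), adjusted p = 1.92e-05). Both were picked as genes whose days do not overlap, and both kept their call with the oligodendrocyte or the endothelial score as a covariate. Of 34 tested genes of vesicles and synapses 3 rose and 7 fell (5 fell with either score), with a median log2FC of 0.03, beside a median of -0.01 over all genes tested. Among all genes 7.82% rose and 9.21% fell. The synaptic vesicle protein Sv2b fell (log2FC -1.64 ± 0.23 (SE), adjusted p = 0.00135), as did the abundant synaptotagmin Syt11 (log2FC -0.67 ± 0.14 (SE), adjusted p = 0.00825). The neuropeptide Npy rose (log2FC 2.32 ± 0.69 (SE), adjusted p = 0.0384).

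The most abundant genes that rose were astrocyte genes in part. Ndrg2 stood at 1449, 1136, 1291 and 906 CPM at 7 days and 1211 to 2621 CPM (median 2284) at 30 days (log2FC 0.74 ± 0.22 (SE), adjusted p = 0.0367), and S100b, a calcium-binding protein of glia, at 813, 772, 803 and 654 CPM at 7 days and 898 to 1411 CPM (median 1143) at 30 days (log2FC 0.62 ± 0.13 (SE), adjusted p = 0.00759). Sdc4, the heparan sulfate proteoglycan syndecan 4, changed most among them and stood at 628, 440.1, 551 and 332 CPM at 7 days and 877 to 2155 CPM (median 1230.4) at 30 days (log2FC 1.46 ± 0.24 (SE), adjusted p = 0.00241), with no overlap. The others of this group were Dbi, Actb, Fbxo2, Dazap2, Id3, Ldhb and Cnbp. The most abundant genes that fell included myelin genes. Mobp, Cnp and Mag, all myelin genes, fell, as did Car2 and Qdpr. Of the 17 oligodendrocyte markers 11 fell and 0 rose by edgeR, 14 were at an unadjusted p-value under 0.05 and 12 fell by DESeq2, and their median log2FC was -0.82. Among all genes 9.21% fell by edgeR. Without library 6 of the 7 day group, which was the richest in these markers, 3 fell, without 7 day library 2 it was 5, and without 30 day library 1 it was 7. The matrix protein Sparc, the desaturase Scd2 and the chaperone Hspa8 were other abundant genes that fell.

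The nuclear-encoded subunits of the respiratory chain, which turn electron flow into ATP in mitochondria, were called far more often upward than downward. Of 82 tested subunits 34 rose and 2 fell, with a median log2FC of 0.39, against 7.82% rising and 9.21% falling over all genes. In complex I, which oxidizes NADH, 18 of 37 rose and 1 fell (median 0.38). In complex IV, which reduces oxygen, 7 of 15 rose and 1 fell (median 0.55). In ATP synthase 6 of 18 rose, in complex III 3 of 9 and in complex II 1 of 4. The membrane subunit Ndufb10 stood at 77.7, 81.1, 76 and 61 CPM at 7 days and 101 to 142 CPM (median 117) at 30 days. No 30 day library came down to the 7 day range (log2FC 0.70 ± 0.11 (SE), adjusted p = 0.00257). Ndufb8 behaved alike at 137, 143, 133 and 129.8 CPM at 7 days and 165 to 228 CPM (median 192) at 30 days (log2FC 0.50 ± 0.10 (SE), adjusted p = 0.0059). Uqcr11 of complex III stood at 42.7, 49.7, 42.1 and 41.3 CPM at 7 days and 54.1 to 105 CPM (median 73.8) at 30 days (log2FC 0.83 ± 0.19 (SE), adjusted p = 0.0112), again without overlap. Cox5b of complex IV stood at 41.3, 47, 37.4 and 38 CPM at 7 days and 46.6 to 165 CPM (median 94) at 30 days (log2FC 1.08 ± 0.31 (SE), adjusted p = 0.035), with overlap. The 2 that fell were Ndufs1, the large catalytic subunit of complex I that carries iron-sulfur clusters (log2FC -0.32 ± 0.08 (SE), adjusted p = 0.024), and Cox4i2, an isoform of complex IV (log2FC -0.96 ± 0.24 (SE), adjusted p = 0.0195).

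The 13 protein genes that mitochondria encode themselves had a median log2FC of -0.42. By edgeR 0 of them rose, 0 were higher at an unadjusted p-value under 0.05, DESeq2 called 0 higher, and 1, mt-Co1, fell, standing at 945, 879, 921 and 708 CPM at 7 days and 238 to 822 CPM (median 514) at 30 days (log2FC -0.78 ± 0.25 (SE), adjusted p = 0.0497). That call was lost with RLE or library size scaling, by limma-voom, with either score, and without any single library other than 30 day library 1 or 5. All 13 summed to 2373, 2725, 2616 and 1964 CPM at 7 days and 716 to 2798 CPM (median 1616) at 30 days, with the lowest value in library 5. With the oligodendrocyte score as a covariate 0 of the 82 nuclear subunits were called by edgeR, where only 185 of all 15491 genes were called higher. Of the subunits 8 were higher and 2 lower at an unadjusted p-value under 0.05, and their median log2FC was 0.12. With the endothelial score 0 were called, beside 103 of all 15491 genes called higher, 5 were higher and 1 lower unadjusted, and the median was 0.09. DESeq2 without a covariate called 49 higher and 2 lower. The count also rests on single libraries. Leaving out 7 day library 6, 5 or 1 gave 10, 11 and 12 subunits higher, and leaving out 30 day library 1, 3 or 2 gave 14, 17 and 18, while the median stayed between 0.36 and 0.46 over all single libraries left out. The complex I score was highest in 30 day libraries 1, 2 and 3, which are also the 3 lowest in oligodendrocyte markers. The part of the oligodendrocyte markers in the rise was not tested.

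Of the ribosomal proteins, some rose and 0 fell by edgeR or DESeq2, while 1 cytosolic member was lower at an unadjusted p-value under 0.05. Among all genes 7.82% rose and 9.21% fell by edgeR. Of 83 cytosolic ribosomal proteins 12 rose (median log2FC 0.24), among them Rps19 (log2FC 0.52 ± 0.13 (SE), adjusted p = 0.0171), Rps25 (log2FC 0.97 ± 0.24 (SE), adjusted p = 0.0182) and Rpl38 (log2FC 1.07 ± 0.29 (SE), adjusted p = 0.0251). Copies of these genes elsewhere in the genome can share reads with them, which makes single values uncertain. Without 7 day library 6, 0 of the 83 were called by edgeR, 18 were higher at an unadjusted p-value under 0.05, and single libraries left out moved the count between 0 and 16. Of 78 mitochondrial ribosomal proteins, which translate the 13 mitochondrial genes, 14 rose (median 0.21), and 6 did without 7 day library 6 and 24 without 30 day library 5. Mrps10 of the small subunit had the smallest p-value and stood at 20.6, 25.9, 25 and 20.6 CPM at 7 days and 34 to 37.3 CPM (median 36.1) at 30 days (log2FC 0.63 ± 0.10 (SE), adjusted p = 0.00176). It kept its call with either score as a covariate, where 1 of the 78 was called higher each time. Short transcripts were called higher more often in general. With the genes split by length into 4 equal bins, 10.9% rose and 8.2% fell in the shortest bin, against 4.68% and 12.9% in the longest. With a correction for length and GC content the respiratory subunits counted 26 higher and 3 lower.

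Of 33 antioxidant genes 4 rose and 2 fell, beside 7.82% and 9.21% of all genes (median log2FC 0.33). With either score 1 was called higher and 1 lower, at medians of 0.02 and -0.03, and without a score 11 rose by DESeq2 or without 30 day library 5, while 2 did without 7 day library 6 or 30 day library 1. Sod1, the cytosolic superoxide dismutase, stood at 80.9, 56.7, 54.6 and 50.8 CPM at 7 days and 105 to 161 CPM (median 142) at 30 days (log2FC 1.14 ± 0.16 (SE), adjusted p = 0.00119), without overlap and called with either covariate. Txn2, the mitochondrial thioredoxin, rose (log2FC 0.48 ± 0.09 (SE), adjusted p = 0.00461), as did the peroxiredoxin Prdx2 (log2FC 0.41 ± 0.11 (SE), adjusted p = 0.0261) and the quinone reductase Nqo1 (log2FC 0.56 ± 0.17 (SE), adjusted p = 0.0449). The catalase gene Cat and the glutathione transferase Gstp1 fell, by log2FC of -0.27 and -0.66. Glycolytic enzymes showed no common direction, with 1 of 18 higher (Ldhb, a lactate dehydrogenase subunit), 2 lower and a median log2FC of 0.03.

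The promoters of 4 genes from these groups are shown because members of their lists were often called in 1 direction and their promoters hold the letters searched. They were picked after it was known which promoters hold a motif. They are taken from RefSeq on GRCm38.p6 and span 300 bases around the transcription start, most of them before it. Promoters were matched for 11490 of the genes tested. Motifs were searched on both strands. Capitals mark the ETS letters CCGGAAGT and the NRF1 letters GCATGCGC in Uqcr11 (chr10:80406772-80407071, minus strand), the YY1 letters AAGATGGC in Ndufb8 (chr19:44555393-44555692, minus strand), the heat shock element GAANNTTC in Hspa1b (chr17:34959189-34959488, minus strand) and the GC box GGGCGG in Cyp51 (chr5:4104648-4104947, minus strand).
Uqcr11: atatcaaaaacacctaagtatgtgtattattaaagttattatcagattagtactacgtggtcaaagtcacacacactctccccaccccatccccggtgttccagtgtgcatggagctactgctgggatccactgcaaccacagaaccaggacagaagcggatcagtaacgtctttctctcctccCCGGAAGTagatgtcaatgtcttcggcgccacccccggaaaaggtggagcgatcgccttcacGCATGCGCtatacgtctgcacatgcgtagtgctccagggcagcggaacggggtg
Ndufb8: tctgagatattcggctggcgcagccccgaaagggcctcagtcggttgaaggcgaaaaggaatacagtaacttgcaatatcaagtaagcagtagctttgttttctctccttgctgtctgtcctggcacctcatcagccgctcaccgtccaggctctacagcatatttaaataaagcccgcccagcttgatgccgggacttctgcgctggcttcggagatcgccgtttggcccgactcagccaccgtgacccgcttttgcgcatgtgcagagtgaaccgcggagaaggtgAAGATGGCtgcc
Hspa1b: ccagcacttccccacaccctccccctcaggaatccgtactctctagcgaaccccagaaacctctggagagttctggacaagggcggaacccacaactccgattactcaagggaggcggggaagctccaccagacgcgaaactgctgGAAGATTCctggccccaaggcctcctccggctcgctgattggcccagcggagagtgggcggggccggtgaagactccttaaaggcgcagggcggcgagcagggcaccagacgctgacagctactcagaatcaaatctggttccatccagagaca
Cyp51: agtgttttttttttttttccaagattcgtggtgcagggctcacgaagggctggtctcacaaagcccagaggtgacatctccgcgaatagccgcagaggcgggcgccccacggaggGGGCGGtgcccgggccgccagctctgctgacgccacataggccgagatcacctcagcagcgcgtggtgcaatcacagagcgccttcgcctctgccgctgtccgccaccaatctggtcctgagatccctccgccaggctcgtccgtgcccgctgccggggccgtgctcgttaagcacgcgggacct

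The NRF1 letters were found in 10 of 66 promoters of respiratory subunits (15.2%), beside 5.13% of all promoters. The YY1 letters were found in 8 of the 66 (12.1%) and in 12 of 69 promoters of mitochondrial ribosomal proteins (17.4%), beside 4.39% of all. The ETS letters were in 12 of 60 promoters of cytosolic ribosomal proteins (20%), beside 7.82% of all. The heat shock element was in 9 of 21 promoters of heat shock genes (42.9%), beside 5.63% of all. The GC box was in 14 of 15 promoters of cholesterol enzymes (93.3%), but also in 63.3% of all. Between the genes called higher and those called lower the shares were close for most motifs, for example 5.75% and 5.83% for NRF1 and 8.79% and 7.81% for ETS. The CRE letters TGACGTCA were in 1.41% of the promoters of genes called higher, 3.41% of those called lower and 3.17% of all. These are counts of letters and were not tested.

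Cholesterol synthesis supplies sterol for membranes, and most of its enzymes fell. Of 20 tested enzymes 17 fell and 0 rose by edgeR, with a median log2FC of -0.74, against 9.21% of all genes falling. At an unadjusted p-value under 0.05 the counts were 18 lower and 0 higher, and DESeq2 called 17 lower and 0 higher. Cyp51, lanosterol demethylase (chromosome 5, 4081145 to 4104746), stood at 435, 475, 389 and 466.01 CPM at 7 days and 119 to 222 CPM (median 197) at 30 days (log2FC -1.23 ± 0.14 (SE), adjusted p = 0.000451). Fdps, which makes farnesyl diphosphate, stood at 462, 489, 392 and 565 CPM at 7 days and 154 to 293 CPM (median 214) at 30 days (log2FC -1.11 ± 0.15 (SE), adjusted p = 0.00115). In neither did the days overlap, and library 7 was the lowest of the 30 day group in both. The 3 enzymes that did not pass were Nsdhl (log2FC -0.38, adjusted p = 0.0564), Pmvk (log2FC 0.19, adjusted p = 0.22) and Tm7sf2 (log2FC -0.03, adjusted p = 0.797). With the oligodendrocyte score as a covariate 6 of the 20 were called lower and the median was -0.66, and with the endothelial score 4 were, at a median of -0.74. Leaving out any single library gave 13 to 17 lower. In the ONH the same enzymes had a median log2FC of -0.06.

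Of 34 tested collagens, the fibres and sheets of the matrix, 9 fell and 0 rose by edgeR (median log2FC -0.68), with 0 higher at an unadjusted p-value under 0.05. Over all genes tested 9.21% fell and 7.82% rose. DESeq2, which tested 43, called 10 lower and 0 higher. Besides Col7a1 these included the basement membrane chain Col4a6, which stood at 37.2, 37.6, 42 and 36.1 CPM at 7 days and 15.9 to 24.8 CPM (median 19.4) at 30 days (log2FC -0.88 ± 0.14 (SE), adjusted p = 0.00189), and Col18a1, the source of endostatin, which stood at 60.8, 44.1, 56.4 and 41.5 CPM at 7 days and 19.7 to 32.4 CPM (median 24.3) at 30 days (log2FC -1.03 ± 0.17 (SE), adjusted p = 0.00229). Neither overlapped. With the oligodendrocyte score 3 collagens were called lower and the median was 0.04, so the direction of the list as a whole was not kept there, and with the endothelial score the values were 2 and -0.12. Without library 6 of the 7 day group 5 fell. Of 15 laminins and basement membrane genes 1 fell, Lamb3 (log2FC -2.69 ± 0.61 (SE), adjusted p = 0.012). Of 28 matrix glycoproteins 6 fell, or 3 without 7 day library 1, and 1, Reln, rose. Ltbp1, which holds latent TGF-beta in the matrix, stood at 67.6, 55.2, 59.3 and 49.8 CPM at 7 days and 17.4 to 31.5 CPM (median 22.7) at 30 days (log2FC -1.35 ± 0.16 (SE), adjusted p = 0.000548). Of 23 integrins 4 fell, or 2 with the oligodendrocyte and 1 with the endothelial score, including Itgb1, the shared beta 1 chain, which stood at 239, 290.1, 264 and 289 CPM at 7 days and 148 to 198 CPM (median 164) at 30 days (log2FC -0.67 ± 0.10 (SE), adjusted p = 0.00165). Proteoglycans went both ways, with Sdc4, the lectican Ncan (log2FC 1.06 ± 0.21 (SE), adjusted p = 0.0066) and the glypican Gpc5 (log2FC 1.10 ± 0.21 (SE), adjusted p = 0.00551) higher and Spock1 (log2FC -1.33 ± 0.25 (SE), adjusted p = 0.00556) and Sdc1 (log2FC -0.85 ± 0.20 (SE), adjusted p = 0.0158) lower, out of 25. Of 27 matrix proteases and inhibitors 1 rose and 3 fell, at a median log2FC of -0.06. The protease inhibitor Timp4 rose (log2FC 1.14 ± 0.21 (SE), adjusted p = 0.0047) and the proteases Adamts1 (log2FC -0.76 ± 0.14 (SE), adjusted p = 0.00467) and Adamts4 (log2FC -0.90 ± 0.27 (SE), adjusted p = 0.0356) fell. Of 17 keratins 1 rose, Krt10 (log2FC 1.32 ± 0.42 (SE), adjusted p = 0.0474), and 1 fell, Krt14, while the median log2FC was -1.26. At an unadjusted p-value under 0.05 there were 2 higher and 5 lower, and DESeq2, which tested 31, called 2 higher and 5 lower. The cytolinker Dst, dystonin, stood at 128, 98.8, 141 and 113 CPM at 7 days and 43.6 to 54.6 CPM (median 50.6) at 30 days (log2FC -1.27 ± 0.10 (SE), adjusted p = 0.000134).

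**Figure D4:**
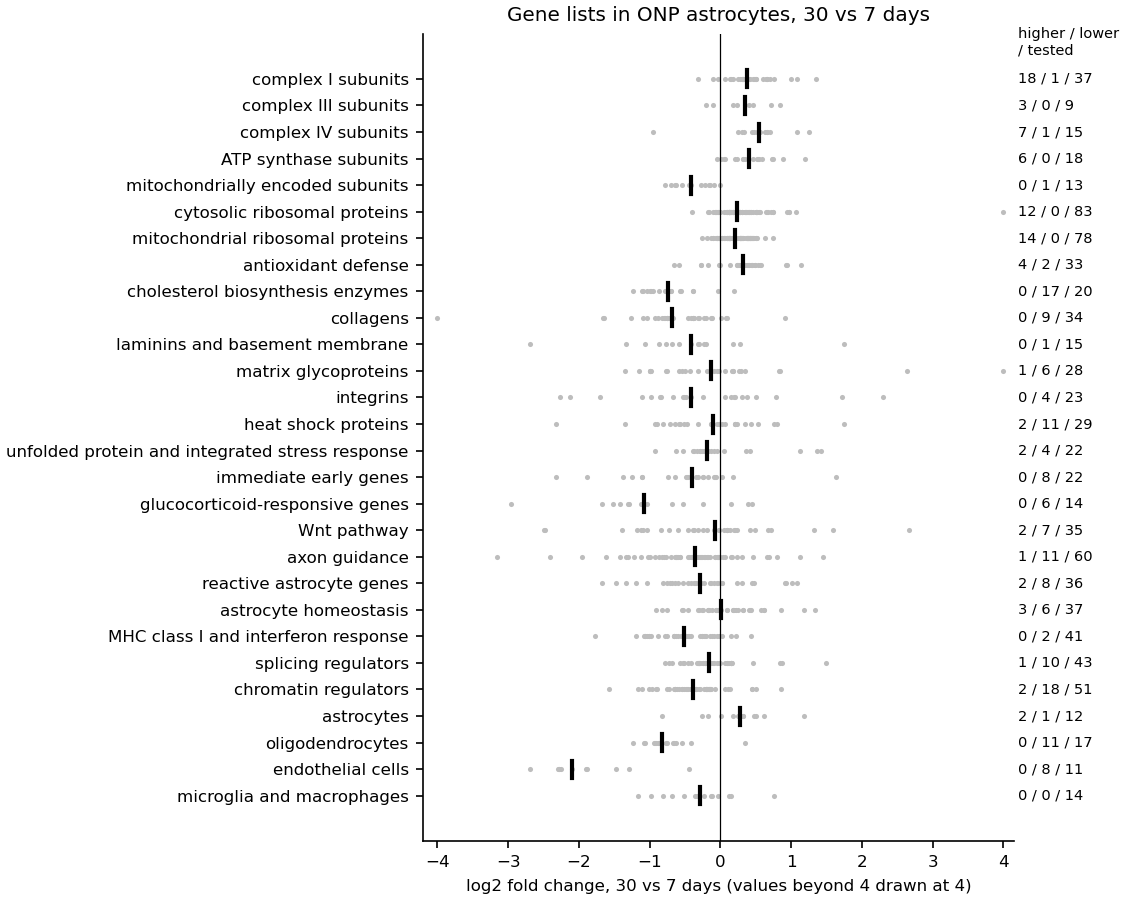
Log2 fold change at 30 vs 7 days of each tested member (grey points) and the median (black bar) for 28 gene lists, with the numbers called higher, called lower and tested at the right. Values beyond 4 in either direction are drawn at 4. Cholesterol enzymes, collagens, oligodendrocyte and endothelial markers lie to the left and respiratory subunits to the right.

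Many chaperones, which fold and protect proteins, fell. Of 29 heat shock genes 11 fell and 2 rose, while the median log2FC over the list was -0.11, and 0.01 with scaling by library size alone. Over all genes 9.21% fell and 7.82% rose. The inducible Hspa1b, whose promoter is printed above, stood at 64.9, 43.7, 11.6 and 34.8 CPM at 7 days and 5.15 to 11.2 CPM (median 7.77) at 30 days (log2FC -2.33 ± 0.34 (SE), adjusted p = 0.00153), and its neighbour Hspa1a, which is nearly identical in sequence, at 58.7, 45.3, 36.5 and 46.5 CPM at 7 days and 14.4 to 24.1 CPM (median 18.4) at 30 days (log2FC -1.35 ± 0.15 (SE), adjusted p = 0.000435). Hspa5, the main chaperone of the endoplasmic reticulum, stood at 1651, 1345, 1279 and 1235 CPM at 7 days and 609.7 to 882 CPM (median 699) at 30 days (log2FC -0.93 ± 0.11 (SE), adjusted p = 0.000651), and Hsp90ab1 fell as well (log2FC -0.89 ± 0.12 (SE), adjusted p = 0.000985). With the oligodendrocyte score 8 of the 29 were called lower and with the endothelial score 7. The exceptions that rose were Hsf4, a heat shock transcription factor, at 2.27, 1.92, 1.43 and 1.05 CPM at 7 days and 3.75 to 6.88 CPM (median 5.87) at 30 days (log2FC 1.75 ± 0.28 (SE), adjusted p = 0.00241), and the small chaperone Hspb8 (log2FC 0.76 ± 0.20 (SE), adjusted p = 0.0219). Of 22 genes of the unfolded protein and integrated stress response 4 fell and 2 rose. Calr, calreticulin, fell (log2FC -0.63 ± 0.10 (SE), adjusted p = 0.00261), and the transcription factors Atf5 (log2FC 1.36 ± 0.33 (SE), adjusted p = 0.0173) and Ddit3 (log2FC 0.42 ± 0.13 (SE), adjusted p = 0.0423) rose.

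Several genes that respond to stimulation or to glucocorticoids fell. Of 22 immediate early genes 8 fell and 0 rose by edgeR (median log2FC -0.40), beside 9.21% and 7.82% of all genes. Lower calls numbered 3 with the oligodendrocyte score and 1 with the endothelial score. Without a score 9 had an unadjusted p-value under 0.05, 9 fell by DESeq2, and Fos was not called (log2FC -0.08 ± 0.15 (SE), adjusted p = 0.766). The phosphatase Dusp1 stood at 188, 93, 109 and 83.3 CPM at 7 days and 42.6 to 75.5 CPM (median 50.3) at 30 days (log2FC -1.11 ± 0.22 (SE), adjusted p = 0.0059). The transcription factor Jun (log2FC -0.64 ± 0.17 (SE), adjusted p = 0.0255) and the matricellular genes Ctgf (log2FC -1.89 ± 0.53 (SE), adjusted p = 0.0288) and Cyr61 (log2FC -1.11 ± 0.35 (SE), adjusted p = 0.0467), which YAP signalling induces, also fell. Leaving out any single library lowered the count to between 3 and 6, with 3 without 7 day library 1 or 6. Of 14 glucocorticoid-responsive genes 6 fell and 0 rose by edgeR (median -1.08), and 7 fell by DESeq2. Sgk1, a kinase induced by steroids and stress, stood at 1311, 1396, 326 and 2008 CPM at 7 days and 85.2 to 280.4 CPM (median 135) at 30 days (log2FC -2.96 ± 0.40 (SE), adjusted p = 0.00103). The 4 libraries at 7 days spread widely, with library 5 at 326 CPM, yet none overlapped the 30 day range. Per1, a clock gene that glucocorticoids induce, fell (log2FC -1.52 ± 0.29 (SE), adjusted p = 0.00565), as did Errfi1 (log2FC -1.29 ± 0.22 (SE), adjusted p = 0.00349). With the oligodendrocyte or the endothelial score 0 of the 14 were called by edgeR, beside 415 and 294 of all 15491 genes called lower. At an unadjusted p-value under 0.05 there were 6 and 2 lower, at medians of -0.71 and -0.59.

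Wnt and axon guidance genes were called lower more often than higher, beside 9.21% lower and 7.82% higher over all genes. Of 35 Wnt pathway genes 7 fell and 2 rose, while the median log2FC was -0.07, and 0.04 with scaling by library size alone. Lower calls numbered 4 with the oligodendrocyte score and 6 with the endothelial score. The secreted inhibitor Wif1 stood at 62, 38.4, 26.6 and 54.2 CPM at 7 days and 3.13 to 13 CPM (median 9.99) at 30 days (log2FC -2.48 ± 0.36 (SE), adjusted p = 0.0014), and the receptor Fzd1 at 57.1, 50.1, 43.3 and 58.7 CPM at 7 days and 19 to 29.2 CPM (median 25.5) at 30 days (log2FC -1.10 ± 0.14 (SE), adjusted p = 0.000941). Frzb, another secreted Wnt binder, was tight within groups at 25.6, 31.8, 27.7 and 27.6 CPM at 7 days and 11.5 to 14.3 CPM (median 12) at 30 days (log2FC -1.18 ± 0.11 (SE), adjusted p = 0.00024). The 2 that rose were the receptor Fzd9 (log2FC 1.32 ± 0.30 (SE), adjusted p = 0.0119) and the ligand Wnt11 (log2FC 2.67 ± 0.68 (SE), adjusted p = 0.0201). Of 60 axon guidance genes 11 fell and 1 rose (median log2FC -0.36), and 4 were called lower with either score, at medians of -0.19 and -0.13. Slit2, a repellent ligand, stood at 34.8, 42.1, 30 and 36.6 CPM at 7 days and 11.2 to 18.5 CPM (median 15.7) at 30 days (log2FC -1.22 ± 0.15 (SE), adjusted p = 0.000598), the semaphorin Sema4f at 49.5, 37.2, 29.8 and 36.3 CPM at 7 days and 5.25 to 12.8 CPM (median 11.5) at 30 days (log2FC -1.95 ± 0.24 (SE), adjusted p = 0.000701), and the receptor Nrp2, the one that rose, at 31.9, 31.3, 28.5 and 30.5 CPM at 7 days and 37.1 to 102 CPM (median 63) at 30 days (log2FC 1.12 ± 0.22 (SE), adjusted p = 0.00641). None of these 3 overlapped. In the TGF-beta and BMP list 3 of 33 rose, a share near the 7.82% of all genes, and with either score 0 did by edgeR, with 3 and 4 higher at an unadjusted p-value under 0.05. The 3 that rose without a score were the inhibitors of differentiation Id2 (log2FC 1.08 ± 0.32 (SE), adjusted p = 0.0385), Id3 (log2FC 0.74 ± 0.19 (SE), adjusted p = 0.0234) and Id4 (log2FC 1.58 ± 0.43 (SE), adjusted p = 0.0269), which BMP signals induce, and Smad3 fell (log2FC -0.59 ± 0.14 (SE), adjusted p = 0.0144). In the Notch and Hedgehog list 3 of 20 fell, among them the Hedgehog targets Hhip (log2FC -1.23 ± 0.23 (SE), adjusted p = 0.00465) and Ptch1 (log2FC -0.59 ± 0.14 (SE), adjusted p = 0.0162).

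Of 36 genes linked to reactive astrocytes 8 fell and 2 rose (median log2FC -0.29), and 9 were called lower with the oligodendrocyte score and 4 with the endothelial score. Over all genes 9.21% fell and 7.82% rose without a score. The intermediate filament Vim stood at 2419, 1897, 1885 and 1638 CPM at 7 days and 778 to 1499 CPM (median 1128) at 30 days (log2FC -0.82 ± 0.18 (SE), adjusted p = 0.0116), and the transcription factor Stat3 at 393, 340.4, 278 and 332 CPM at 7 days and 220.0 to 249 CPM (median 228) at 30 days (log2FC -0.53 ± 0.09 (SE), adjusted p = 0.00324). Neither overlapped. The acute phase genes Lcn2 (log2FC -1.67 ± 0.38 (SE), adjusted p = 0.0122) and Serpina3n (log2FC -0.71 ± 0.15 (SE), adjusted p = 0.00958) and the chemokine Cxcl10 (log2FC -1.33 ± 0.41 (SE), adjusted p = 0.0414) fell, while the proteoglycan Srgn (log2FC 1.0 ± 0.18 (SE), adjusted p = 0.00404) and Aspg (log2FC 0.91 ± 0.27 (SE), adjusted p = 0.0369) rose. C4b was the only one of 17 complement genes that edgeR called (log2FC -0.43 ± 0.11 (SE), adjusted p = 0.0207), and C3 was not (log2FC 0.62 ± 0.24 (SE), adjusted p = 0.0889). Of 41 genes of MHC class I and the interferon response 2 fell by edgeR (4.88%), under the 9.21% of all genes. DESeq2 called 11 lower, beside 1657 of all 26637 genes. At an unadjusted p-value under 0.05 in edgeR 17 were lower, beside 2621 of all 15491 genes, and the median log2FC was -0.52. Libraries 5 and 7 of the 30 day group were left out after they were seen to be high in microglia markers. In that fit 16 of the 41 and 8 of the 17 were called lower, beside 1851 of all 15216 genes. Choosing libraries by such markers can by itself produce lower calls, so these counts are no result about the 2 lists.

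Of 37 homeostatic astrocyte genes 3 rose, a share near the 7.82% of all genes, and 6 fell, beside 9.21% of all genes. The median log2FC was 0.01, and the balance turned with the setting. With the oligodendrocyte score 0 were called higher by edgeR (1 at an unadjusted p-value under 0.05) and 9 lower, at a median of -0.40, and with the endothelial score 0 (0 unadjusted) and 13, at -0.73. Without 30 day libraries 5 and 7, left out after their microglia markers were seen to be high, 11 were higher and 5 lower, at 0.20. In that fit 1847 of all 15216 genes were higher and 1851 lower. Only 3 fell without 7 day library 2 or 6 or 30 day library 1, 4 or 6. The potassium channel Kcnj10 stood at 298, 286, 220.4 and 269.7 CPM at 7 days and 132 to 229 CPM (median 147) at 30 days (log2FC -0.75 ± 0.15 (SE), adjusted p = 0.00626), with 1 library in the overlap. The calcium release channel Itpr2 (log2FC -0.91 ± 0.12 (SE), adjusted p = 0.00102) and glutamine synthetase, Glul (log2FC -0.83 ± 0.24 (SE), adjusted p = 0.0324), fell too. The gap junction gene Gjb6 (log2FC 1.18 ± 0.32 (SE), adjusted p = 0.0265), S100b and the adenosine receptor Adora2b (log2FC 1.338 ± 0.27 (SE), adjusted p = 0.00739) rose. Kcnj10 had a log2FC of -1.02 with the oligodendrocyte score (adjusted p = 0.0161 by edgeR) and Glul one of -0.22 (adjusted p = 0.644 by edgeR).

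Regulators of chromatin and splicing were called lower more often than higher. Of 51 chromatin regulators 18 fell and 2 rose (median log2FC -0.39), and without 7 day library 6 the number that fell was 11. Corrected for length and GC content 19 fell and 2 rose. Tet3, an enzyme that oxidizes methylcytosine, stood at 32.3, 24.5, 41.7 and 36.6 CPM at 7 days and 9.27 to 14 CPM (median 10.4) at 30 days (log2FC -1.57 ± 0.16 (SE), adjusted p = 0.000351), and the histone methyltransferase Kmt2a fell (log2FC -1.16 ± 0.23 (SE), adjusted p = 0.00614), while the deacetylase Hdac3 rose (log2FC 0.44 ± 0.11 (SE), adjusted p = 0.0162). With the oligodendrocyte or the endothelial score 1 of the 51 was called lower, beside 415 and 294 of all 15491 genes. Of 43 splicing regulators 10 fell and 1 rose, beside 9.21% and 7.82% of all genes, and 5 fell without 7 day library 6 and 6 without 7 day library 2. Using the oligodendrocyte score 1 was lower and 2 higher, and with the endothelial score 0 were lower by edgeR (5 at an unadjusted p-value under 0.05) and 1 was higher. Ddx5, an RNA helicase, fell (log2FC -0.46 ± 0.07 (SE), adjusted p = 0.00207), and Srsf5, a splicing factor, rose at 88.5, 75.9, 89.2 and 70.6 CPM at 7 days and 119 to 195 CPM (median 139) at 30 days (log2FC 0.84 ± 0.13 (SE), adjusted p = 0.00187).

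Vessel and axon markers fell in part. Of 11 endothelial markers 8 fell and 0 rose by edgeR or DESeq2, 9 had an unadjusted p-value under 0.05 (median log2FC -2.10), and 5 fell without 7 day library 6, among them Pecam1, which stood at 15.1, 16, 22.2 and 17.4 CPM at 7 days and 0.306 to 8.71 CPM (median 1.68) at 30 days (log2FC -2.70 ± 0.62 (SE), adjusted p = 0.0134). Of the mural markers 2 of 7 fell, including Rgs5 (log2FC -1.66 ± 0.28 (SE), adjusted p = 0.00282). Of the 14 microglia markers 0 were called by edgeR or DESeq2 and 0 had an unadjusted p-value under 0.05. At 30 days they spread widely between libraries, as given above. Of 10 tested markers of neurons and axons 3 fell and 1 rose, beside 9.21% and 7.82% of all genes. Those that fell included the neurofilaments Nefh, given above, and Nefl (log2FC -1.94 ± 0.42 (SE), adjusted p = 0.0101). The 1 that rose was Sncg, a synuclein of retinal ganglion cells, at 1.84, 0.767, 2.05 and 1.09 CPM at 7 days and 3.88 to 6.1 CPM (median 5.3) at 30 days (log2FC 1.87 ± 0.29 (SE), adjusted p = 0.00204).

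For 91 of 16748 genes (0.543%) the change in the ONP differed from that in the ONH in the interaction contrast over all 22 libraries, 25 more positive in the ONP and 66 more negative. Of these 84 were also called within the ONP, 23 higher and 61 lower, beside 17% called among all genes tested there. The contrast contains the ONP change itself, from the same libraries, so a large overlap is built in and is no separate support. The difference was called for Unc13c (log2FC difference -2.91 ± 0.44 (SE), adjusted p = 0.00423), whose ONH level was 770.3 ± 417 CPM at 7 days and 548 ± 203 CPM at 30 days (mean ± SD, n = 4 and 7). Rph3a stood in the ONH at 101 ± 50.7 CPM at 7 days and 65.4 ± 23.1 CPM at 30 days (difference -2.76 ± 0.42 (SE), adjusted p = 0.00469). Ccdc3 rose in the ONP at 9.83, 6.07, 22.3 and 9.87 CPM at 7 days and 43 to 98.8 CPM (median 60.9) at 30 days and had the reverse point estimate in the ONH at 7.63 ± 2.57 CPM at 7 days and 2.04 ± 1.42 CPM at 30 days (difference 4.41 ± 0.65 (SE), adjusted p = 0.00415). Cck, the neuropeptide cholecystokinin, rose in the ONP at 2.4, 2.11, 2.79 and 1.39 CPM at 7 days and 10.5 to 29.7 CPM (median 24.9) at 30 days (difference 3.76 ± 0.60 (SE), adjusted p = 0.00567), and in the ONH was at 8.67 ± 6.55 CPM at 7 days and 6.39 ± 2.66 CPM at 30 days. Rgs7bp, an anchor of RGS7 proteins, rose in the ONP at 3.62, 2.17, 4.55 and 2.63 CPM at 7 days and 8.97 to 18.3 CPM (median 11.5) at 30 days (difference 2.61 ± 0.37 (SE), adjusted p = 0.00415). Frzb (difference -1.51 ± 0.22 (SE), adjusted p = 0.00415), Cyp51 (difference -1.23 ± 0.20 (SE), adjusted p = 0.00595) and Clmn (difference -1.90 ± 0.31 (SE), adjusted p = 0.00681) had a more negative change in the ONP. Among the genes of the lists above, Wif1 (-2.50 ± 0.44 (SE), adjusted p = 0.0106), Dst (-1.05 ± 0.18 (SE), adjusted p = 0.00873), Ltbp1 (-1.30 ± 0.27 (SE), adjusted p = 0.0321), Sema4f (-1.69 ± 0.34 (SE), adjusted p = 0.028), Kcnj10 (-1.52 ± 0.28 (SE), adjusted p = 0.0186) and Tet3 (-1.45 ± 0.32 (SE), adjusted p = 0.0407) also differed. The study took ONH and ONP from the same mice, and this contrast treats all libraries as independent. That equal numbers mark the same pool is not stated in the sources used here. The number of genes called rests on few libraries. It was 409 by DESeq2, 93 by limma-voom and 161 by limma-voom with the replicate number shared by the 30 day ONH and ONP libraries as a block. It was 22 without any one of 7 day libraries 1, 2 and 6, 31 to 59 without 30 day library 1, 2, 3, 4 or 6, and 144 without 30 day library 5.

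**Figure D5:**
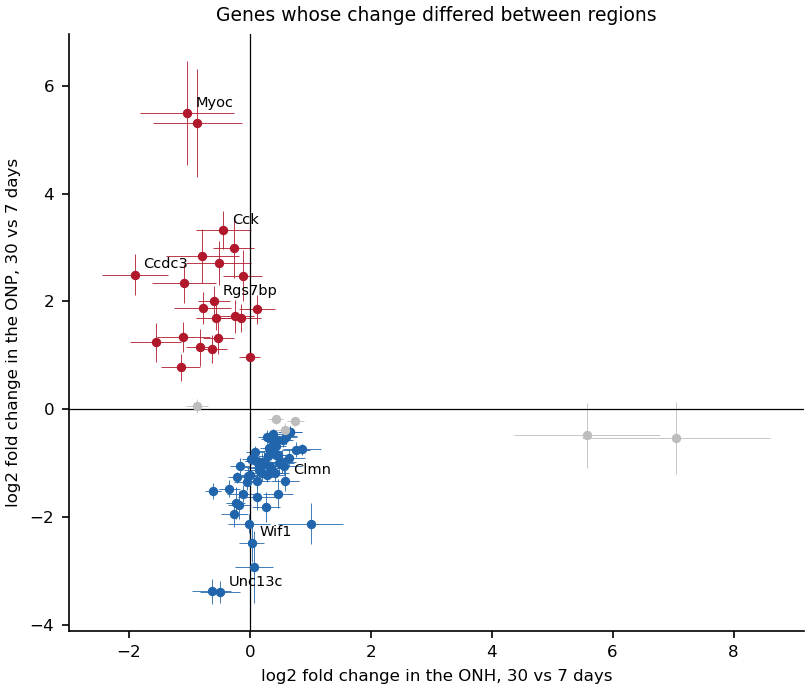
Log2 fold change at 30 vs 7 days in the ONP (vertical axis) against that in the ONH (horizontal axis), with standard errors, for the 88 genes with a called difference that were tested in both regions. Red and blue mark genes called higher or lower in the ONP, and grey those not called there.

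Mgarp, Tes and Cartpt are among the genes that the paper lists as setting ONH astrocytes apart from those of the ONP. In the ONP the levels of these 3 dropped between the days. They were picked after the values were seen, and the other genes of that list are not reported here, so no general drop can be read from them. Mgarp stood at 18.9, 9.97, 6.02 and 13.2 CPM at 7 days and 2.67 to 4.49 CPM (median 3.02) at 30 days (log2FC -1.82 ± 0.27 (SE), adjusted p = 0.00171), beside an ONH level of 238 ± 50.7 CPM at 7 days and 286 ± 80.1 CPM at 30 days (difference -2.08 ± 0.36 (SE), adjusted p = 0.0106). Tes fell in the ONP (log2FC -1.35 ± 0.20 (SE), adjusted p = 0.00173), and so did the neuropeptide gene Cartpt, at 33.7, 14.2, 3.36 and 9.08 CPM at 7 days and 1.78 to 7.05 CPM (median 3.59) at 30 days (log2FC -2.01 ± 0.53 (SE), adjusted p = 0.0231), with overlap. At 7 days library 1 was the highest of the 4 for all 3 genes. How much neighbouring ONH tissue each ONP piece held was not measured.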

How the data were processed

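The authors immunoprecipitated HA-tagged ribosomes from pooled optic nerve tissue, sequenced the bound mRNA and deposited expected counts per gene, estimated with Salmon 0.14.2 beside alignment by STAR 2.6.1d on mm10, both per the submitters' processing notes, which also name DESeq2 1.34.0 and R 4.1.0. The deposited expected counts are whole numbers. Libraries held 16292489 to 28729105 counts. No column was left without a sample.

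Genes were filtered with edgeR 4.0.16 (filterByExpr), scaled by TMM and tested with its quasi-likelihood test over the 11 ONP libraries (R 4.3.3), with no covariate, and p-values were adjusted by the Benjamini-Hochberg method at 0.05. The difference between regions was a contrast over 22 libraries. CPM are TMM-scaled. Libraries are treated as separate samples, and p-values measure the spread between them. Bounds and intervals cover counting error only. Alternatives used DESeq2 1.42.0, limma 3.58.1, other scalings and filters, a length and GC correction, the oligodendrocyte score as a covariate and each library left out. The endothelial and microglia scores, 30 day libraries 5 and 7 left out and limma-voom without the block were added after seeing the data. On simulated counts for 15491 genes with 200 changed, 45.1% were recovered at 2-fold, 78.5% at 4-fold and 92.4% at 8-fold, and 4.26% of calls were false. The simulation drew each gene independently and changed far fewer genes than were called in the data. It held no shift shared by many genes, such as that of the cell type markers. Its rates are therefore no guide to the share of false calls in these data.

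Named genes are the 15 largest increases and decreases among called genes without overlap and with at least 1 CPM in the higher group, the 10 most abundant called in each direction, the list members of smallest p or that define a list, the 8 of smallest p in the contrast between regions, and genes the study's text names. Other list members were picked after their values were seen. A few genes that the rule names are not reported here. Members and lists were chosen with earlier results of these data known. Gene positions, lengths and GC content come from GENCODE on GRCm38, and Python 3.11.15 was used for the promoters and figures.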

Additional observations from a re-analysis of the deposited data

Results flagged for a closer look

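In 388 groups of CPM values, those of the named genes and of the summed markers at each day, 39 had 1 library far from the others (10.1%). Chance gives about 1 in 20 groups of normally distributed values. CPM were not transformed here and can be skewed, so the higher share is not read as a departure from chance. Nor does the 1 in 20 hold for A330076C08Rik, Aurkb, Gm13716, Pax8, Reln and Wisp2 at 7 days. There the other 3 libraries were at 0 and any count stands apart, and A330076C08Rik and Reln were under 3 counts. Libraries 5 (8 groups) and 7 (6) at 30 days and library 6 (6) at 7 days accounted for most. Library 1 at 30 days was the highest for Gpc5 (8.76 CPM), Krt14 (1.29 CPM) and Krt5 (2.75 CPM). The highest at 30 days was library 2 for Cox5b (165 CPM) and Kcnj10 (229 CPM). At 30 days library 3 was the highest for Sdc4 (2155 CPM). Library 4 at 30 days was the highest for Nefl (6.44 CPM) and Srsf5 (195 CPM). The lowest at 30 days was library 4 for Sncg (3.88 CPM). At 30 days library 5 was the highest for Itgb4 (158 CPM), P2ry12 (91.2 CPM), Pecam1 (8.71 CPM), Rgs5 (12.9 CPM), Sox17 (3.37 CPM), endothelial cells (155 CPM), neurons and axons (259 CPM) and photoreceptors (78.5 CPM). Library 6 at 30 days was the lowest for Col5a1 (9.33 CPM). The highest at 30 days was library 7 for Bhlhe41 (251 CPM), Serpina3n (918 CPM), Smad3 (31.4 CPM) and skeletal muscle (35.9 CPM). At 30 days library 7 was the lowest for Idi1 (115 CPM) and Sqle (126 CPM). Library 1 at 7 days was the highest for Ddit3 (71.5 CPM) and Wisp2 (0.43 CPM). The highest at 7 days was library 2 for Gm13716 (0.192 CPM), Rpl38 (7.22 CPM) and Uqcr11 (49.7 CPM). At 7 days library 5 was the highest for A330076C08Rik (0.041 CPM), Myoc (1.27 CPM), Pax8 (0.656 CPM) and Reln (0.041 CPM). Library 6 at 7 days was the highest for Aurkb (0.375 CPM), Car2 (3853 CPM), Cat (229 CPM), Mbp (46385 CPM) and oligodendrocyte precursors (471 CPM). The lowest at 7 days was library 6 for Rps19 (22.4 CPM).

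For 22 named genes the change in the ONP differed from that in the ONH. The log2FC difference, ONP minus ONH, was positive for Adora2b (2.45), Ccdc3 (4.41), Cck (3.76), Fzd9 (1.85), Myoc (6.56), Pax8 (6.20), Rgs7bp (2.61) and Sncg (2.66). It was negative for Clmn (-1.90), Cyp51 (-1.23), Dst (-1.05), Frzb (-1.51), Kcnj10 (-1.52), Lamb3 (-7.71), Ltbp1 (-1.30), Mgarp (-2.08), Rph3a (-2.76), Sema4f (-1.69), Sv2b (-1.75), Tet3 (-1.45), Unc13c (-2.91) and Wif1 (-2.50). Each passed the interaction contrast at an adjusted p-value under 0.05 over all 16748 genes tested, with no correction for the choice of named genes.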

How the results depend on the processing

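The 2638 genes called (1211 higher, 1427 lower) became 2900 with scaling by library size alone, of which 1934 were higher and 966 lower, so that the share of higher calls went from 45.9% to 66.7% and the median log2FC of all genes from -0.01 to 0.11. DESeq2 called 3711 (2054 higher, 2625 in all shared), a single fit of all 4 groups 1189 (562 higher, 627 lower), the oligodendrocyte score as a covariate 600 (185 higher, 415 lower) and the endothelial score 397 (103 higher, 294 lower). Without 30 day libraries 5 and 7 the calls were 3698 (1847 higher, 1851 lower). Each library left out in turn gave 1439 to 3214 calls, 683 to 1677 higher and 756 to 1537 lower, lowest without 7 day library 6 and highest without 30 day library 5. The other counts were 2666 with RLE size factors, 3173 by limma-voom, 2070 without a filter, 2612 with at least 10 counts in every library, 2635 without mitochondrial genes, 2619 with the length and GC correction and 2026 with the microglia score. The endothelial score separates the days completely, so that fit has little left to estimate the day from. The causes of the other shifts were not tested.

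For the difference between regions, 91 genes became 409 by DESeq2, 50 without a filter, 69 by library size and 22 to 144 with each library left out (31 without 30 day library 6). No paired analysis was possible because the 7 day count columns carry other numbers than the labels, and the 30 and 7 day mice differ. For the contrast between regions the replicate number shared by the 30 day ONH and ONP libraries was used as a block, which gave 161 calls by limma-voom against 93 without it. Deviations of same-numbered libraries correlated at 0.0767 to 0.471, 5 of the 7 pairs were above 0.1, and libraries 2, 4 and 7 correlated best with their own number. The study states that ONH and ONP came from the same mice, but not that equal numbers mark 1 pool, so both counts are given.

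Of 167 named genes called, 36 stayed called with the endothelial score, 56 with the oligodendrocyte score, 146 with the microglia score and 126 to 165 with a library left out. Under the endothelial score the log2FC changed sign for Ndrg2 (-0.14), Fbxo2 (-0.12), Id3 (-0.0024), Mobp (0.017), Cnp (0.12), Mag (0.0095), Qdpr (0.10), Adamts4 (0.11), Krt10 (-0.0093), Hspb8 (-0.068), Id2 (-0.19) and Glul (0.025), and under the oligodendrocyte score for Qdpr (0.0037).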
